A study of Rattus norvegicus with 12 samples.

Results

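Glycolytic enzymes were followed in jejunal mucosa scraped from rats, the inner layer of the small intestine between duodenum and ileum, in a low Fe group and a high Fe group. The rule took every probe set, a group of short probes read as 1 value, whose only platform gene symbol was Hk2, Gpi, Pfkl, Aldoa, Tpi1, Pgk1, Pgam1, Eno1, Pkm or Ldha. It found 11 probe sets for 9 of these 10 genes, out of 31142 probe sets and 13810 genes with a probe set of their own on 2 Affymetrix rat array types, 230A and 230B. All 11 were on 230A and 0 on 230B. Pkm, the pyruvate kinase of most tissues, had only a probe set that carries a second symbol, so no value is given for it.

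Both groups were labelled with a week number of 12, and anemia and iron deficiency stand among the labels' keywords. Each array type had 3 arrays a group, numbered as group 1 to 3 in the titles and called replicates here. Whether arrays of the 2 types with 1 number hold the same RNA, the strain, the sex, the diet composition and the number of animals behind an array are not given in the sources used here. P-values therefore rest on the spread among these 3 and 3 samples, part or all of which may be technical.

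Glycolysis splits 1 glucose into pyruvate in the cytosol and yields ATP without oxygen. Hexokinase, phosphofructokinase and pyruvate kinase catalyse the steps that are in practice one-way, and lactate dehydrogenase turns pyruvate into lactate and restores NAD+. Many of these genes are known targets of hypoxia-inducible factors, whose prolyl hydroxylases need oxygen and iron, and which bind DNA at a core written ACGTG or GCGTG. In the small intestine enterocytes pass on much of the absorbed glucose and draw heavily on glutamine for fuel.

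Promoter windows of 4 of the enzymes are shown so that the letters can be set beside each gene's response: Ldha, with the most ACGTG matches, Eno1 and Pgam1, with 1 match each, and Pfkl, with 0 and the largest difference between the groups. They are RefSeq sequences of the build GRCr8, from 250 bases before to 50 after the start, and capitals mark ACGTG on either strand.
Ldha, chr1:106507842-106508141, plus strand: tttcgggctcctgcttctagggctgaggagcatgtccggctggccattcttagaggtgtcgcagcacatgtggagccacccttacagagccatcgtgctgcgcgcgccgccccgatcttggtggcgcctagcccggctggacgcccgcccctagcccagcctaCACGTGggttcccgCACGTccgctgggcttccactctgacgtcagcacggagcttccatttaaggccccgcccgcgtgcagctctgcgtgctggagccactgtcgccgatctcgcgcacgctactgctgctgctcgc
Eno1, chr5:166003111-166003410, plus strand: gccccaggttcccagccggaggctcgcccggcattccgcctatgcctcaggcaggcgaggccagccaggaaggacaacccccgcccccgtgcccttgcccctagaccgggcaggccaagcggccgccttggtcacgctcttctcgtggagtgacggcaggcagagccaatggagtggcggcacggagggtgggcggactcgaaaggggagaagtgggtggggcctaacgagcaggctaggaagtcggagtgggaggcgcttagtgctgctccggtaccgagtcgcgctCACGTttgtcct
Pgam1, chr1:250672902-250673201, plus strand: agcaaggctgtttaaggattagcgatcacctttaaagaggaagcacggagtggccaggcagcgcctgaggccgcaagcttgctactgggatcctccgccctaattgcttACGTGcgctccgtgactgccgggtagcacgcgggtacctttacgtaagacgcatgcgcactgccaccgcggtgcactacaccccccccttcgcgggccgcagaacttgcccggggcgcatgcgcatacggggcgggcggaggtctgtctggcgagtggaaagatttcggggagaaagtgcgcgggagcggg
Pfkl, chr20:10663715-10664014, plus strand: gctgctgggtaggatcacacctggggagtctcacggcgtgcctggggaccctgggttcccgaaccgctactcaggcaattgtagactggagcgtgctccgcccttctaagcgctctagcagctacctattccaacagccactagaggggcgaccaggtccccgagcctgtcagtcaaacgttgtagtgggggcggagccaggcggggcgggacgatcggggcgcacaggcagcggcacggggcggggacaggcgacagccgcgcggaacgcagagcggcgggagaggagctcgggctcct
The table held 12 such windows for 9 of the 10 genes (3 for Aldoa, 2 for Eno1), with no entry for Pgk1. ACGTG was present in 5 of the 12, in Ldha, Eno1, Pgam1, Gpi and Aldoa, against 19.3% of all 33469 windows. The windows were not matched for base content, and no test of these shares was run. The match of Ldha at position 164 of its window is a palindrome, CACGTG, so it counts on both strands and overlaps itself, and a further match starts at position 178. The sister core GCGTG, counted apart on both strands, was present in 5 of the 12 and in 29.7% of all windows. It is not marked by capitals. Ldha held 3 copies, Pfkl 2, and the shown windows of Eno1 and Pgam1 1 each. Pfkl was picked by its difference, and a relation of matches to the differences was not tested. A match is a string of letters and not a shown binding site.

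None of the 9 tested probe sets of the glycolytic enzymes passed an adjusted p of 0.05 in low Fe against high Fe mucosa (limma, adjusted over all 9520 tested probe sets of 230A, of which 0.0945% passed). At an unadjusted p under 0.05 there was 1, a Pgk1 probe set, beside 6.72% of all tested probe sets, and the count was also 1 with eBayes without a trend and with robust eBayes. Over all alternatives it ran from 0, without low Fe replicate 2 or without high Fe replicate 3, to 4, on the hybridization controls. There the arrays were set equal on bacterial and phage transcripts added in known amounts. Of all 9520 tested probe sets, 362 were under 0.05 without low Fe replicate 2 and 468 on those controls, against 640 in the main fit. Of the 8 tested genes, 3 had a log2 difference above 0 and 5 below, from -0.10 to 0.59, with a median of -0.03 for the brightest probe set of each gene. The median over all tested probe sets was -0.02. The brighter of 2 probe sets of Tfrc, the transferrin receptor, whose transcript is known to be stabilised when cells lack iron, was picked with its values known and passed on the same arrays with 4114 ± 970.5 in low Fe and 602 ± 154 in high Fe samples (SD, n = 3 each; log2 difference 2.74 ± 0.24, limma adjusted p = 0.0026). Its dimmer probe set gave 1.67 ± 0.41 and did not pass (limma adjusted p = 0.496).

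Signals below are linear intensities that the authors had scaled to the same trimmed mean on every array, and differences are of log2(signal + 16), low Fe minus high Fe, with the standard error of the fit. Levels of different probe sets are not compared, since probes differ in brightness. In a mucosal scraping, fewer cells of a type and less RNA per cell cannot be told apart.

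**Figure D1:**
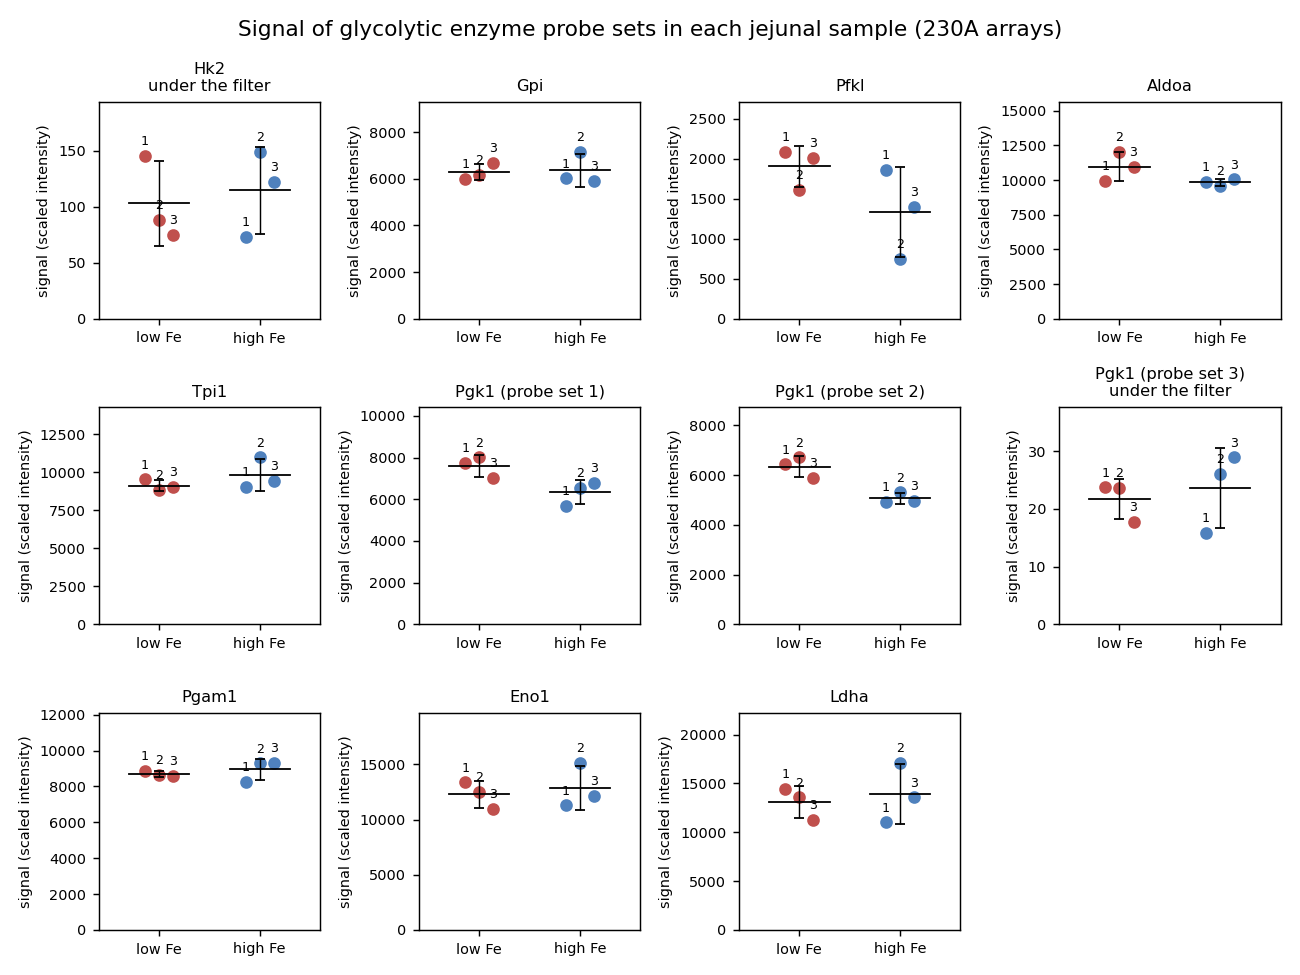
Signal of each of the 11 probe sets (vertical axis, linear scaled intensity from 0) in the low Fe and high Fe samples, with replicate numbers beside the points, and the mean and SD of the 3 samples as lines. Only the first and second Pgk1 probe sets have all 3 low Fe points above all 3 high Fe points.

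Glucose enters the pathway through hexokinases. Hk2 (1369006_at), the isoform that muscle, fat and tumours induce, had signals of 146, 88.3 and 74.8 in low Fe replicates 1 to 3, against 72.9, 149.0 and 122 in high Fe replicates 1 to 3. The groups overlapped over nearly their whole range. Its mean over the 6 arrays, 108.9, lay just under the filter boundary of 109.0, below which the 40% dimmest probe sets were left untested. Fitted with no filter, Hk2 had a log2 difference of -0.14 ± 0.32 (limma adjusted p = 0.959).

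Gpi (1371392_at), glucose-6-phosphate isomerase, had 6006, 6182 and 6669 in low Fe samples, against 6015, 7150.3 and 5899 in high Fe samples. The ranges overlapped, and the highest value was that of high Fe replicate 2. The log2 difference was -0.01 ± 0.12, with a 95% interval of the fold from 0.823 to 1.20 (limma adjusted p = 0.987).

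Pfkl (1367743_at), the liver type subunit of phosphofructokinase, the main control point of the pathway, had the largest difference of the enzymes. Its signals were 2087, 1612 and 2016 in low Fe samples, against 1861, 749.5 and 1397 in high Fe samples. The groups overlapped, since high Fe replicate 1 lay above low Fe replicate 2, and high Fe replicate 2 lay far under all other arrays. The means were 1905 ± 256 in low Fe and 1336 ± 558 in high Fe (SD, n = 3 each), a log2 difference of 0.59 ± 0.29 with a fold interval from 0.952 to 2.39 that did not pass (limma adjusted p = 0.765). Without high Fe replicate 2 it was 0.23, and without high Fe replicate 1 it was 0.88. Among the 3 arrays with the lower 5'/3' signal ratio of the GAPDH controls, a sign of RNA quality, it was -0.05 (2 low Fe, 1 high Fe), and among the other 3 it was 1.02 (1 low Fe, 2 high Fe). The part of RNA quality in the result was not tested.

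Aldoa (1367617_at), the aldolase that cleaves fructose-1,6-bisphosphate, had 9954, 12030.2 and 10942 in low Fe samples, against 9859.7, 9595 and 10052 in high Fe samples. Low Fe replicate 1 lay inside the narrow high Fe range, while the other low Fe samples lay above it. The log2 difference of 0.15 ± 0.11 did not pass (limma adjusted p = 0.808), and the fold interval ran from 0.937 to 1.32. Tpi1 (1367603_at), which interconverts the triose phosphates that aldolase makes, had 9516, 8807 and 9033 in low Fe samples, against 9014, 10963 and 9424 in high Fe samples. These ranges overlapped, again with high Fe replicate 2 on top. Its log2 difference was -0.10 ± 0.11 (limma adjusted p = 0.874), with a fold interval from 0.781 to 1.12.

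The next step, that of glyceraldehyde-3-phosphate dehydrogenase, was outside the rule. On 230A its 3 GAPDH control probe sets, which were not tested, had signals between 9708 and 14416 in low Fe samples, and between 9204 and 18186 in high Fe samples. High Fe replicate 2 was the highest 230A array for each of the 3.

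Pgk1, phosphoglycerate kinase, which makes the first ATP of the pathway, was the enzyme whose groups stood apart. Its brightest probe set (1388318_at) had 7748, 8008 and 7005.5 in low Fe samples, against 5683, 6556 and 6798.5 in high Fe samples. The second (1387361_s_at) had 6432, 6716 and 5882 in low Fe samples, against 4929, 5309 and 4966 in high Fe samples. In both, the lowest low Fe sample lay above the highest high Fe sample, narrowly so in the first, and 5.61% of all tested probe sets had groups that stood apart in this direction.

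The means of the brightest Pgk1 probe set were 7587 ± 520.1 in low Fe and 6346 ± 587 in high Fe (SD, n = 3 each). The log2 difference was 0.26 ± 0.12 (limma adjusted p = 0.751, fold interval from 0.995 to 1.44). The means of the second were 6343 ± 424 in low Fe and 5068 ± 209.6 in high Fe. Its log2 difference was 0.32 ± 0.11 (limma unadjusted p = 0.016, adjusted p = 0.686, fold interval from 1.05 to 1.48). Neither passed. Without any 1 array the differences stayed between 0.18 and 0.32 for the first and between 0.28 and 0.37 for the second. Both probe sets read the same gene in the same RNA and are not independent, and the suffix of the second marks probes shared by several transcripts. The remaining Pgk1 probe set (1368906_at) was near the floor of the arrays, at 17.7 to 23.7 in low Fe and 15.8 to 28.9 in high Fe samples, and was not tested. The first and second lay above 0 in both GAPDH ratio sets, at 0.40 and 0.35 in the lower set and 0.21 and 0.32 in the other.

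Pgam1 (1386864_at), phosphoglycerate mutase, had 8862, 8629 and 8576.5 in low Fe samples, against 8255, 9286 and 9312 in high Fe samples. All 3 low Fe samples lay inside the high Fe range. The log2 difference was -0.04 ± 0.10 (limma adjusted p = 0.947), with a fold interval from 0.826 to 1.14.

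Eno1 (1367575_at), the widely expressed enolase, had 13363, 12534 and 10933 in low Fe samples, against 11277, 15133 and 12172 in high Fe samples. The ranges overlapped, with low Fe replicate 3 and high Fe replicate 1 low and high Fe replicate 2 high. The log2 difference was -0.06 ± 0.14 (limma adjusted p = 0.940), and the fold interval ran from 0.770 to 1.19.

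Ldha (1367586_at), the muscle type subunit of lactate dehydrogenase, had 14406, 13570.5 and 11245 in low Fe samples, against 11009, 17096 and 13567 in high Fe samples. As for Eno1, high Fe replicate 1 and low Fe replicate 3 were low and high Fe replicate 2 was high. Its means were 13074 ± 1638 in low Fe and 13891 ± 3056 in high Fe (SD, n = 3 each), a log2 difference of -0.07 ± 0.17 (limma adjusted p = 0.942) with a fold interval from 0.727 to 1.25.

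**Figure D2:**
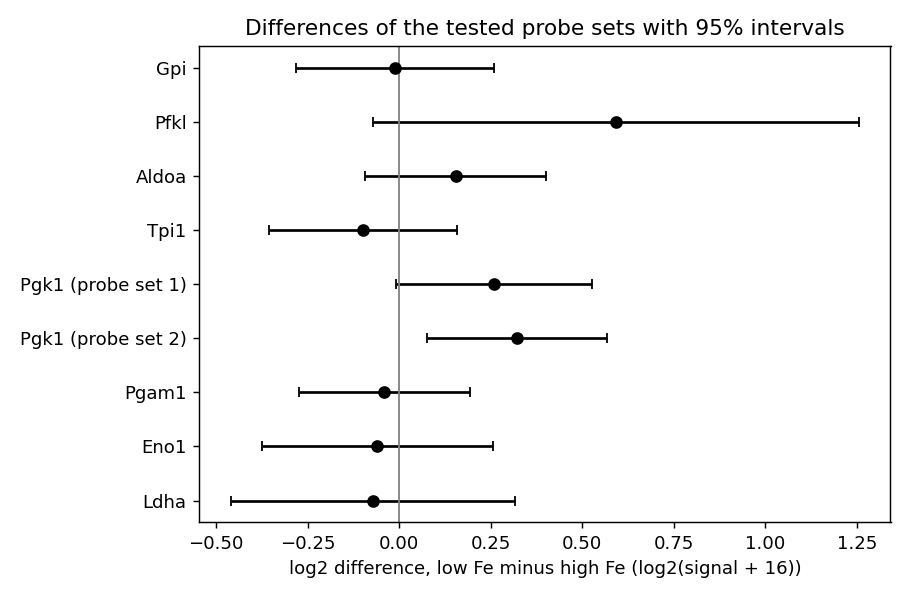
Log2 differences, low Fe minus high Fe, of the 9 tested probe sets (points) with the unadjusted 95% intervals of the limma fit (bars). The interval of the second Pgk1 probe set alone lies wholly above 0, and that of Pfkl is the widest.

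Leaving Pfkl aside, the fold intervals of the other 8 tested probe sets lay between 0.727 and 1.48. A change beyond that range was outside the interval of each, taken one at a time, whereas for Pfkl a fold of up to 2.39 was inside it. The scaling by the authors sets the arrays equal on average, so these are changes relative to the other transcripts. When arrays were set equal on the hybridization controls, the median over all probe sets moved to 0.34 and the signs of Gpi, Tpi1, Pgam1, Eno1 and Ldha turned to above 0. Relative to that median they lay between -0.07 and 0.02, Pfkl at 0.62 and the 2 tested Pgk1 probe sets at 0.29 and 0.35. The size of that shift rested on high Fe replicate 2, since the median over all probe sets was 0.07 on the controls without it. The 5 enzymes then lay between 0.07 and 0.18, Pfkl at 0.32 and the Pgk1 probe sets at 0.37 and 0.44, none past the threshold.

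Over the 6 arrays Eno1 and Ldha followed each other most closely, with a Pearson correlation of 0.98, and Tpi1 and Eno1 had 0.85. The lowest correlation was that of Tpi1 and Pfkl, -0.85. These are descriptions over 6 arrays that share their scaling.

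High Fe replicate 2 was the highest array for 4 of the 8 genes, Gpi, Tpi1, Eno1 and Ldha, and the lowest for Aldoa and Pfkl. On that array Ldha lay 0.36 and Pfkl -1.02 from its own mean on the log2 scale. The array also had the highest 99th percentile of signals, 8525, against 7060.4 to 7773 on the other 5, and the highest mean of the hybridization controls (log2), 10.3 against 9.23 to 9.52. It also had the highest summed signal of 6 villus absorptive markers, 122568, and of 4 goblet markers, 62893, against 71736 to 96780 and 40211 to 49535 on the other arrays. On 230B high Fe replicate 2 was the highest array for the villus marker Vil1, 50856. It was not the highest for the goblet marker Agr2, at 29314 against 26664 to 36127 on the other 230B arrays. Whether these bear on the enzymes was not tested.

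**Figure D3:**
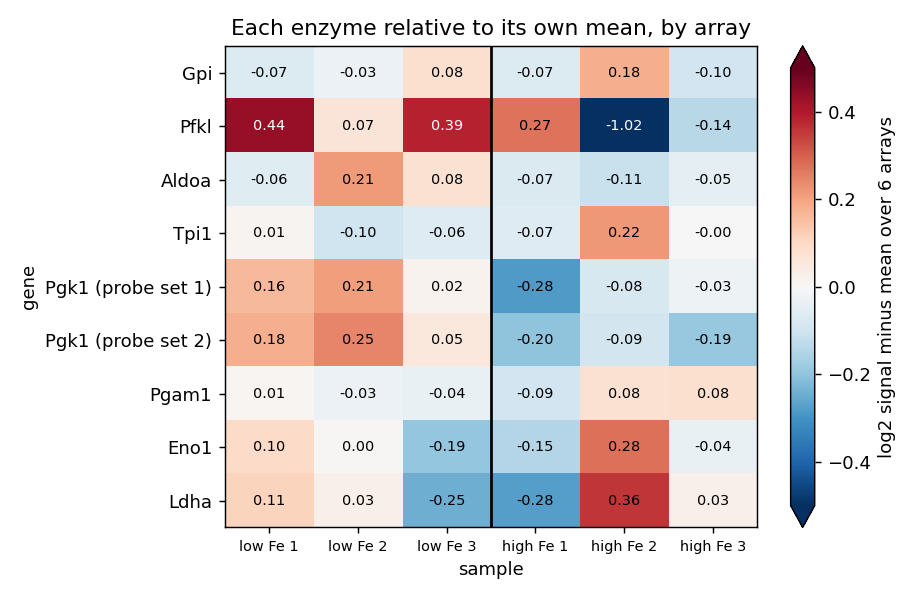
Each tested probe set (rows) on each 230A array (columns, low Fe left of the line, high Fe right), as log2(signal + 16) minus its mean over the 6 arrays; colours saturate at 0.5. Eno1 and Ldha are highest in high Fe replicate 2, where Pfkl is lowest, and both tested Pgk1 probe sets are above 0 in the 3 low Fe samples.

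The brightest Pgk1 probe set was set against 8037 tested probe sets with 1 symbol for the profile most like it over the 6 arrays. The closest were Ackr2, an atypical chemokine receptor (Pearson r = 0.98), Ggta1, a galactosyltransferase of glycoproteins (0.98), Plaa (0.97), Ddx20, an RNA helicase (0.96), and Pik3cd, a phosphoinositide kinase subunit of leukocytes (0.96). None of the 5 passed, with limma adjusted p-values from 0.778 to 0.915. They were picked as the highest of 8037 correlations, each over only 6 arrays. Whether unrelated probe sets would reach values as high was not tested, so they are not shown to be regulated with Pgk1.

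The signals of some markers of other cells stood apart between the groups, as those of Pgk1 did. The summed signal of 6 markers of proliferating crypt cells was 2498 to 3889 in low Fe and 1576 to 1834 in high Fe samples, and that of 8 smooth muscle markers was 4523 to 5928 in low Fe and 3505 to 4211 in high Fe samples. With the authors' scaling no member of either list passed or was at 0 on every array, and 4 of 5 and 5 of 5 tested members were above 0. Smtn, a smooth muscle marker, had 0.043 as its smallest limma adjusted p over the alternatives. In each sum 1 bright gene made up most of the signal. Without Pcna the crypt sum was 581.5 to 1203 in low Fe and 508 to 789 in high Fe samples, with overlap. Without Mylk the smooth muscle sum was 1132 to 1915 in low Fe and 955 to 1285 in high Fe samples, also with overlap. Taken singly on 230A, the groups of Pcna, Mki67, Mylk, Smtn and Des stood apart, and those of the other tested members overlapped. In this direction 5.61% of all tested probe sets of 230A had groups that stood apart. On 230B the sum of 4 smooth muscle markers was 882 to 1444 in low Fe and 919 to 1346 in high Fe samples. In the other direction, Hbb, a globin of red cells, averaged 571 ± 52.5 in low Fe and 849 ± 194 in high Fe (SD, n = 3 each). Cd8a, a T cell marker, averaged 110.2 ± 7.72 in low Fe and 184.5 ± 35.5 in high Fe (SD, n = 3 each). On these 230A probe sets neither overlapped (limma adjusted p = 0.686 and 0.591), as for 6.12% of tested probe sets of 230A in that direction. On 230B the groups of 2 further Cd8a probe sets overlapped. The brighter had 95.7 to 304.8 in low Fe and 254.9 to 501.0 in high Fe samples. Of the tested red cell genes on 230A, 1 lay above 0 and 2 below, and of the immune genes 2 above and 3 below. Without Hbb the red cell sum overlapped, at 263.6 to 363.3 in low Fe and 287.8 to 375.2 in high Fe samples. The immune sum on 230A overlapped too, at 8459 to 10037 in low Fe and 8195.5 to 9237 in high Fe samples. The 6 villus absorptive markers, among them Fabp1 and Alpi, which define the enterocytes of this tissue, summed to 75876 to 96780 in low Fe and 71736 to 122568 in high Fe samples. The 5'/3' ratio of the beta-actin controls of low Fe replicate 3 was the lowest at 0.054, and those of the other 5 arrays were 0.591 to 0.836. The part of these in the Pgk1 values was not tested.

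Neighbouring steps were read from 5 lists on the same fits, and 0 of 44 measurements (39 genes on 230A, 5 on 230B) passed an adjusted p of 0.05; on 230B 0% of the 9166 tested probe sets passed. At an unadjusted p under 0.05 there were 6, beside 6.72% of probe sets on 230A and 10.3% on 230B, and 7 with eBayes without a trend and 6 with robust eBayes. Over all alternatives the count ran from 3, without low Fe replicate 2, to 8, without low Fe replicate 1, and it was 4 on the hybridization controls and with the replicate block. Genes are given by their brightest tested probe set.

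Of 7 glucose and lactate carriers, Slc2a1 and Slc16a3 had groups that stood apart, higher in low Fe, as had 5.61% of all tested probe sets of 230A. Slc2a1, the glucose transporter GLUT1 of most cells, had 413, 451 and 405.5 in low Fe samples, against 282, 258 and 267 in high Fe samples. The 3 low Fe values lay close together, well above the high Fe values. The log2 difference was 0.62 ± 0.13 (limma adjusted p = 0.326). Slc16a3, a lactate exporter, had 3738, 4266 and 4636 in low Fe samples, against 3219, 3159 and 2742 in high Fe samples, also without overlap. Its log2 difference was 0.47 ± 0.13 (limma adjusted p = 0.564). Slc2a2, the basolateral glucose transporter GLUT2 of enterocytes, gave -0.21 ± 0.15, and Bsg, the partner protein of lactate carriers, 0.14 ± 0.11, both with overlapping groups.

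Of 13 genes of pyruvate entry to mitochondria measured on 230A, 4 lay above 0 and 9 below. Pdk4, a kinase that switches off pyruvate dehydrogenase when fat is burned, had 1777, 1079.9 and 1483 in low Fe samples on 230B, against 4645, 3407 and 2277 in high Fe samples. These groups stood apart, as did 10.3% of probe sets of 230B in that direction, and the log2 difference was -1.21 ± 0.28 (limma adjusted p = 0.390). On 230A, where Pdk4 was dimmer and the groups overlapped, it was -0.83 ± 0.35 (limma adjusted p = 0.734), and -0.47 without high Fe replicate 2. Pdk1, the kinase of that family known as a hypoxia target, had 342, 296.5 and 365 in low Fe samples, against 275, 239 and 295 in high Fe samples. Its groups stood apart narrowly, higher in low Fe, as did those of 5.61% of probe sets of 230A. It gave 0.30 ± 0.15 (limma adjusted p = 0.767), and its dimmer probe set 0.54 ± 0.18 (limma adjusted p = 0.686). Pc, pyruvate carboxylase, which makes oxaloacetate from pyruvate, also had groups that stood apart in that direction. Its signals were 350, 402 and 308 in low Fe samples, against 262, 234 and 274.5 in high Fe samples. The log2 difference of Pc was 0.43 ± 0.15 (limma adjusted p = 0.686). Dld, a shared subunit of the dehydrogenase complexes, gave -0.25 ± 0.14 with overlap (limma adjusted p = 0.780).

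Other isoforms of the glycolytic enzymes lay between -0.43 and 0.08 over 7 tested genes on 230A, 3 above and 4 below 0. Pklr, the pyruvate kinase of liver, red cells and gut, had 5978, 5625 and 5188 in low Fe samples, against 6608, 6546 and 6375 in high Fe samples. All low Fe samples lay under all high Fe samples, as for 6.12% of probe sets of 230A, and the log2 difference was -0.22 ± 0.11 (limma adjusted p = 0.759). A dimmer Pklr probe set gave -0.09 ± 0.11, with overlap. Ldhb, the heart type subunit of lactate dehydrogenase, had means of 97.3 ± 17.3 in low Fe and 136 ± 21.3 in high Fe (SD, n = 3 each). Its groups stood apart too, as for 6.12% of probe sets of 230A in that direction. The log2 difference was -0.43 ± 0.21 (limma adjusted p = 0.762). Pfkm and Pfkp, the muscle and platelet types of phosphofructokinase, gave -0.12 ± 0.15 and 0.08 ± 0.12.

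The 6 regulators all lay below 0 on 230A, with a median of -0.18. They did so as well after quantile normalization, while 5 of 6 lay below 0 with a common median and 1 of 6 on the hybridization controls. Without low Fe replicate 2, high Fe replicate 1 or high Fe replicate 2, 5 of 6 lay below 0. Gckr, known as the inhibitor of glucokinase in liver, had 315.5, 272 and 288.5 in low Fe samples, against 507, 399 and 352.5 in high Fe samples. The groups did not overlap, as for 6.12% of probe sets of 230A in that direction, and the log2 difference was -0.49 ± 0.17 (limma adjusted p = 0.686). Pfkfb1 and Pfkfb2, which set the level of the phosphofructokinase activator fructose-2,6-bisphosphate, gave -0.29 ± 0.21 and -0.19 ± 0.17, and Pgp, a phosphatase of glycolytic side products, -0.15 ± 0.16. The pentose phosphate branch, which makes NADPH and ribose, ran from -0.02 to 0.16 over 6 genes, with the lowest limma adjusted p at 0.855. Its examples by the smallest unadjusted p were Taldo1 (0.13 ± 0.12), Rpia (0.16 ± 0.14), Tkt (0.12 ± 0.15) and Pgd (0.09 ± 0.14).

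**Figure D4:**
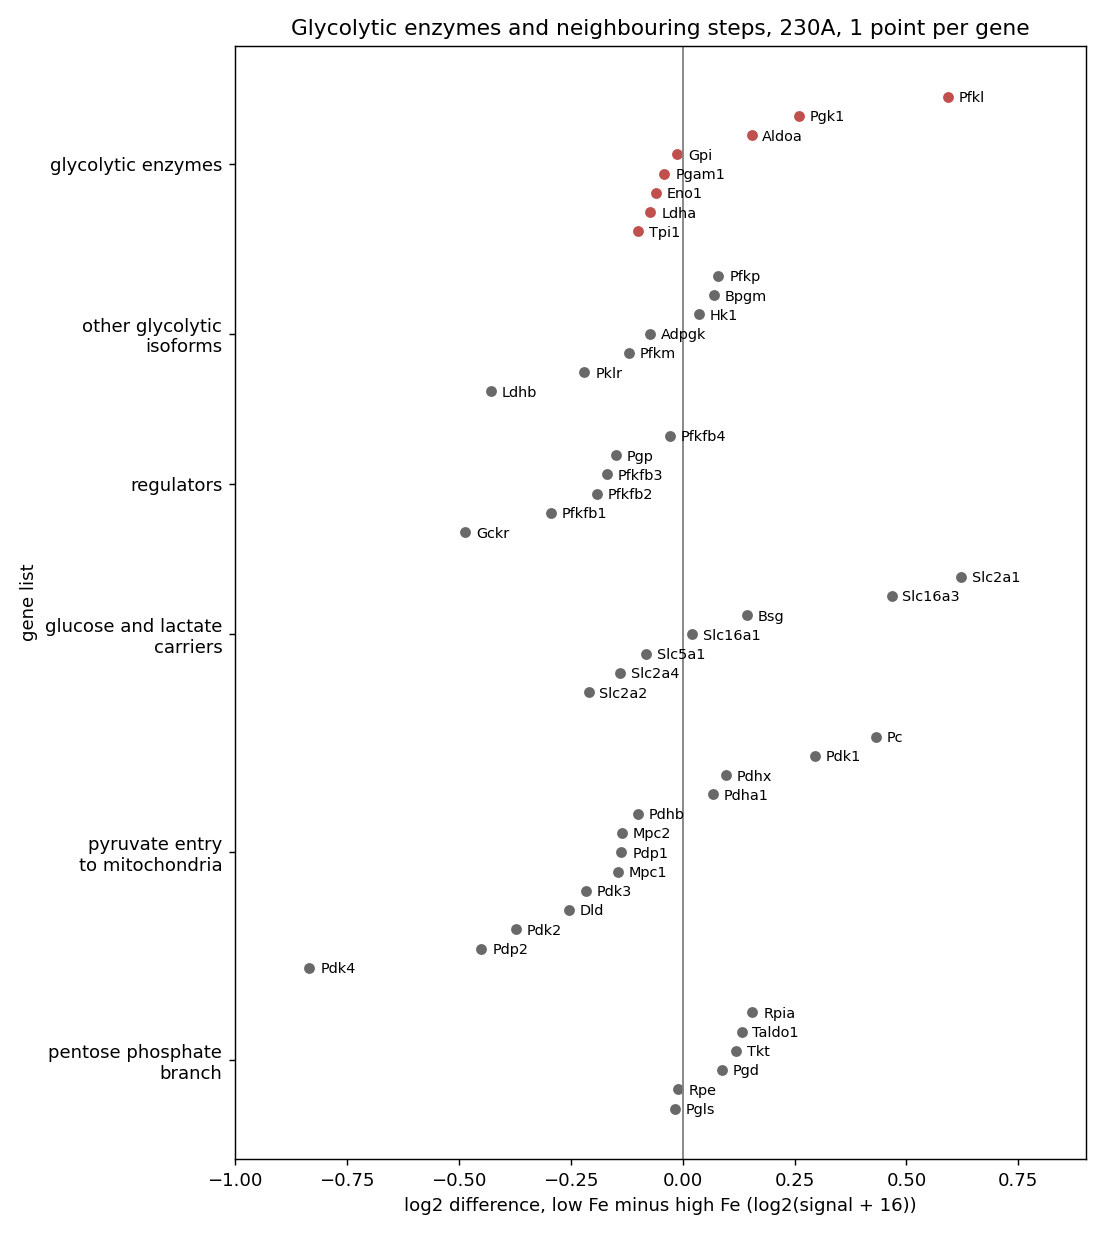
Log2 differences, low Fe minus high Fe, on 230A for the 8 tested glycolytic enzymes (red) and the genes of 5 neighbouring lists (grey), 1 point per gene from its brightest tested probe set. Slc2a1 lies farthest to the right at 0.62 and Pdk4 farthest to the left at -0.83, and no point passed the adjusted threshold.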

How the data were processed

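Samples were assigned to the low Fe and high Fe groups from their titles. As deposited, the values are linear intensities, 1 for each probe set of an array. The sources used here do not give the software. Trimmed by 2% at both ends, every array averages 500.1 (230A) or 500.2 (230B). Symbols were taken from GEO's platform tables (12783 of 15866 probe sets on 230A had 1 symbol, 312 several and 2771 none; on 230B 7564, 100 and 7612 of 15276), updated through Entrez identifiers to RefSeq GRCr8 for lists (12748 and 7524 matched).

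Control probe sets and, per type, the dimmest 40% by mean signal were dropped, and log2(signal + 16) was fitted in limma 3.58.1 (R 4.3.3; lmFit, eBayes with a trend) on 9520 probe sets of 230A and 9166 of 230B apart, with Benjamini-Hochberg adjustment over each type. Steps were tested on simulated data. Samples with the same number did not deviate together (correlations from -0.37 to -0.10), so no block was used. The number of arrays limits the precision. The enzymes and lists were chosen with earlier results of these data known; named genes of a list are up to 4 with the smallest unadjusted p, and Tfrc was added. The alternatives are 2 pseudocounts, 2 filters, 3 scalings, 2 settings of eBayes, 2 blocks, leaving out single arrays, averaging a gene's probe sets and a threshold of 0.1. Leaving high Fe replicate 2 out of the scaling on hybridization controls, and the brightest gene out of a marker sum, were added after seeing the data.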

Additional observations from a re-analysis of the deposited data

How the results depend on the processing

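No probe set of the glycolytic enzymes and no neighbouring gene passed under any of the alternatives, including a threshold of 0.1; over 162 values of the enzymes the smallest adjusted p was 0.359. The number of called probe sets on 230A was 9, against 33 on the hybridization controls, 4 with the replicate block and 15 at a threshold of 0.1, and it ran from 5 (without low Fe replicate 2) to 21 (without low Fe replicate 1) without 1 array. On 230B it was 0, and 5 on the hybridization controls. The replicate block changed no call of an enzyme.

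Pfkl, Aldoa and both tested Pgk1 probe sets kept log2 differences above 0 in every refit. Differences close to 0 changed sign, none past the threshold. On the hybridization controls Gpi gave 0.36, Tpi1 0.28, Pgam1 0.33, Eno1 0.31 and Ldha 0.30. On those controls without high Fe replicate 2, a setting chosen after seeing the data, Gpi gave 0.16, Tpi1 0.071, Pgam1 0.074, Eno1 0.15 and Ldha 0.18, with 8 called probe sets on 230A and 0 on 230B. With a common median Gpi gave 0.057, Pgam1 0.028 and Eno1 0.0081, and after quantile normalization Gpi gave 0.0081, Pgam1 0.025, Eno1 0.042 and Ldha 0.056. Blocked by the GAPDH ratio sets, Eno1 gave 0.016 and Ldha 0.043. Without 1 array Gpi ran from -0.063 to 0.076, Eno1 from -0.15 to 0.062 and Ldha from -0.23 to 0.089. The cause was not tested. The mean of both tested Pgk1 probe sets was 0.29. With no filter, Hk2 gave -0.14 ± 0.32 and the dimmest Pgk1 probe set -0.06 ± 0.20.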
